A study of Mus musculus with 2 samples.

Results

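Heparan sulfate proteoglycans are core proteins that carry long sulfated sugar chains, and the genes described here make those core proteins and the enzymes that build, sulfate and trim the chains. The list holds 35 mouse genes, and 33 of them had at least 1 probe set annotated with that gene alone, 74 probe sets in all. Of these 33 genes, 22 were measured, out of 10371 measured genes among 18193 on the array. A gene was measured when its brightest probe set reached, in at least 1 array, the floor set at the 60th percentile of that array. The floor was 67.5 in the Hand2-null array and 64.2 in the floxed control array. Ndst1 and Xylt1 were not analysed here.

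RNA came from uterine stromal cells of day 4 of pregnancy, hybridized to 1 array for Hand2-null mice and 1 array for floxed control mice. In the Hand2-null mice the floxed Hand2 gene was crossed with PRcre, a line whose Cre is driven by the progesterone receptor gene and so acts in every uterine cell type that uses that gene, not in stroma alone. The control mice carried floxed Hand2, and the labels list Prcre and a mixed C57BL/6 and SV129 background for both genotypes, so they do not settle whether the controls also carried Cre. The cells had been separated from loosened epithelium and left to attach to plates, and RNA of the mice of a genotype was pooled before hybridization, from 5 mice by the series design and 4 by the extraction protocol. With 1 array per genotype nothing was replicated, so no difference below has a p-value or an error, and each describes these pools.

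Heparan sulfate chains start at a xylose on the core protein, are lengthened by EXT enzymes, and are then sulfated and epimerized in patches in the Golgi. The patches bind growth factors. Fibroblast growth factors (FGFs), which the labels name as a subject, need heparan sulfate to hold ligand and receptor together, and Wnt, hedgehog and bone morphogenetic proteins also bind these chains. In the mouse uterus, heparan sulfate proteoglycans such as syndecans and perlecan are known from work on embryo attachment and the decidual reaction.

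The targeted gene went with the labels. The bright probe set of Hand2 had a signal of 38.5 in the Hand2-null array, under the floor, and 1545 in the control array, at least 22.9-fold lower. The 10 smooth muscle markers read beside the list were all higher in Hand2-null cells, summing to a signal of 37192 there and 16841 in control cells. Of all measured genes 44.7% were higher, which is also the background for the other marker lists. Myocd was under the floor in the control array, so it could only be counted as higher. The defining markers Myh11 and Cnn1 had signals of 5768 and 2747 in Hand2-null cells, against 1795 and 676 in control cells. The 10 epithelial markers summed to 8704 and 8371, Hand2-null first, with 7 higher and 3 lower, and Epcam, Cdh1 and Krt8 were well above the floor in both arrays. Of 8 endothelial markers 7 were lower, with a summed signal of 2322 in the Hand2-null array and 3027 in the control array. Of all measured genes, 5732 of 10371 were lower. Cdh5 had the largest fall, from 735 in control to 341 in Hand2-null cells, a log2 ratio of -1.11. Emcn was at -0.43, Vwf at -0.38 and Tek at -0.33. Kdr was at -0.01, Pecam1 and Egfl7 at -0.15, and Tie1 was higher at 0.22. Of 6 mesothelial markers 5 were higher, summing to 1214 and 891. Of these, Msln, Lrrn4, Upk1b and Krt5 were under the floor in the control array, so they could only be counted as higher. The 8 macrophage markers summed to 8214 and 8288, with 4 higher and 4 lower. The 10 immediate-early and stress genes were all higher, summing to 35832 and 28011. The 8 stromal markers summed to 42485 in the Hand2-null array and 37368 in the control array, with 5 higher, among them Col1a1 at a log2 ratio of 0.98, and 3 lower, among them Pdgfra at -0.42. In such mixed isolates a smaller share of a cell type and less RNA per cell cannot be told apart, and the part of the other cell types in the results below was not tested.

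None of the 22 measured heparan sulfate genes differed by 2-fold. At that threshold 0 were higher, where 1.99% of all measured genes were, and 0 were lower, where 0.742% of all measured genes were. There were 11 genes with a higher and 11 with a lower signal in the Hand2-null array, where 44.7% of all measured genes were higher, and the median of their log2 ratios was -0.01, beside -0.03 for all measured genes. By the brightest probe set of each gene, ratios ran from -0.86 for Gpc3 to 0.63 for Hpse. The one measure of disagreement at hand is between probe sets that read the same gene, whose log2 ratios had a standard deviation (SD) of 0.19 over 3665 genes, and it leaves out the variation between mice. Past this SD lay 6 of the 22 genes, or 27.3%, on the higher side, where 21.8% of all measured genes lay, and 5, or 22.7%, on the lower side, where 26.3% of all measured genes lay. Both shares are near the background. At 1.5-fold, Hpse and Sdc2 were higher, 2 of 22 where the background was 6.21%, and Gpc3, Gpc1 and Gpc6 were lower, 3 of 22 where the background was 3.33%.

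**Figure D1:**
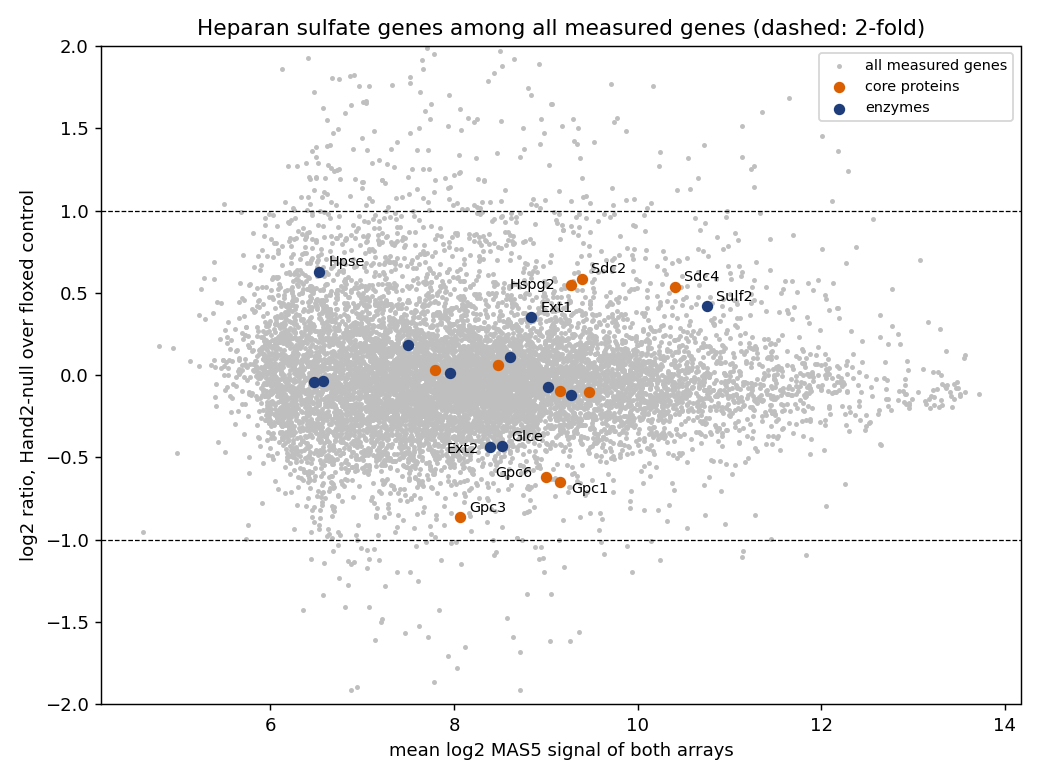
Mean log2 signal of both arrays (horizontal) against the log2 ratio of Hand2-null over floxed control (vertical), 1 point per measured gene, with core proteins in orange, enzymes in blue and all 10371 measured genes in grey. No heparan sulfate gene reaches the dashed lines at 2-fold, Gpc3 at -0.86 is the lowest, and 15 grey genes lie outside the plotted range of 2 in size.

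Glypicans, core proteins held on the outer cell membrane by a lipid anchor, had the lowest median ratio of the roles in the list. Gpc3, an overgrowth regulator that binds hedgehog ligands, had a signal of 198 in Hand2-null cells and 361 in control cells on its only probe set, 1.82-fold lower. Gpc1, known as a co-receptor of FGFs, had a signal of 455 in Hand2-null cells and 715 in control cells, 1.57-fold lower. Gpc6 had a signal of 412 in Hand2-null cells and 633 in control cells on its brightest probe set, 1.54-fold lower. These 3 ratios, -0.86, -0.65 and -0.62 on the log2 scale, lie at percentiles 1.14, 2.56 and 2.96 among all measured genes. The middle 95% of measured genes ran from -0.66 to 0.93, so Gpc3 is the only 1 of the 22 outside it, with 424 measured genes having a larger ratio in size. By its definition this band leaves a small share of all genes outside. It also pools dim and bright genes. In the brightest quartile of measured genes the middle 95% ran from -0.545 to 0.90, and Gpc1, in that quartile, lay outside it. Gpc4, by contrast, had a signal of 224 in Hand2-null cells and 219 in control cells, a log2 ratio of 0.03 that turned to -0.02 when the arrays were centred on their medians. Its second probe set had a signal of 81.1 in Hand2-null cells and 52.3, under the floor, in control cells, at least 1.26-fold higher. Among the same cells, endothelial markers were lower in 7 of 8 cases, 4 of them past the SD between probe sets. Of all measured genes 5732 of 10371 were lower, and 26.3% lay past the SD on that side. Smooth muscle markers were higher in 10 of 10, all past it. Of all measured genes 44.7% were higher, and 21.8% lay past the SD on that side.

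The measured probe sets of Gpc6 did not all show the same size of difference. A second, 1437417_s_at, had signals of 188 in the Hand2-null and 273 in the control array, a log2 ratio of -0.54. Another, 1419688_at, near the floor, had 94.6 in the Hand2-null and 92.1 in the control array, a ratio of 0.04. The last measured one, 1441438_at, had 54.9, under the floor, in the Hand2-null and 76.8 in the control array, a ratio of -0.19 or lower. A further probe set, 1419689_at, was under the floor in both arrays. The brighter pair thus carried the lower value, and the mean over the 4 measured probe sets was -0.33. Gpc2 and Gpc5 had signals of 36.4 and 7.74 in Hand2-null cells and 41.9 and 4.48 in control cells, all under the floor, so no fold is given.

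Gpc3 and Gpc4 are neighbours on the X chromosome with no annotated gene between them, and Gpc5 and Gpc6 are neighbours on chromosome 14 with no protein-coding gene between them. The X-linked pair differed in these pools: the log2 ratio of Gpc3 was lower than that of Gpc4 by a difference of -0.90. The SD for the difference between 2 probe sets of 1 gene was 0.27, which does not measure the spread between genes or mice. The other X-linked gene of the list, Hs6st2, lies near this pair, with 2 protein-coding genes between it and Gpc4. It was under the floor in both arrays. The promoters of Gpc3 and Gpc4 are printed to show this pair side by side. Each is the 250 bases before the annotated start in RefSeq (GRCm38.p6, minus strand, read 5′ to 3′ along the gene), at chrX:52613975-52614224 for Gpc3 and chrX:52164924-52165173 for Gpc4. Capitals would mark an E-box, the letters CANNTG that basic helix-loop-helix proteins such as HAND2 bind as dimers, and neither window holds one.
Gpc3: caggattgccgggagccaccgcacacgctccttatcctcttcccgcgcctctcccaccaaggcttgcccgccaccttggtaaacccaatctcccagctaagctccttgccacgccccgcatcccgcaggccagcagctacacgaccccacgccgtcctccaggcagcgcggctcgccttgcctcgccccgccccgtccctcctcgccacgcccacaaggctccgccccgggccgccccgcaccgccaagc
Gpc4: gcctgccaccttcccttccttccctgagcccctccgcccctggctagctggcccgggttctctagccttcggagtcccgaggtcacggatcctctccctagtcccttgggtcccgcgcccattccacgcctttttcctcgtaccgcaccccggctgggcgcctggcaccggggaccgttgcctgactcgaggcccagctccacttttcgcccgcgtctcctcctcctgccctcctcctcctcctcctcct
Both are rich in G and C, at 71.6% and 68.4%, beside a median of 52.4% over the 32851 promoters of the table.

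Syndecans are core proteins that cross the membrane and link matrix to the cytoskeleton. By their brightest probe sets 3 of 4 had ratios above 0, where 44.7% of all measured genes did. Only 2 of the 4, Sdc2 and Sdc4, lay past the SD between probe sets, where 21.8% of all measured genes lay on the higher side. Sdc2, the syndecan typical of fibroblasts and other mesenchymal cells, had signals of 823, 482 and 194 on its 3 measured probe sets in Hand2-null cells. In control cells the same probe sets had 548, 332 and 137. Each probe set was brighter in the Hand2-null array, by log2 ratios of 0.59, 0.54 and 0.50, a spread of 0.08 between them. Sdc4, a broadly expressed syndecan of focal adhesions, had signals of 1639 and 935 on its 2 probe sets in Hand2-null cells, against 1130 and 496 in control cells. Its ratios were 0.54 for the brighter and 0.92 for the dimmer, which is 1.45-fold and 1.89-fold.

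Sdc1, the syndecan typical of epithelia, had signals of 682 in Hand2-null cells and 732 in control cells on its brightest probe set. Its 3 measured probe sets disagreed in sign, with log2 ratios of -0.10, -0.05 and 0.33, so no direction is given. Sdc3 had signals of 364 in Hand2-null cells and 350 in control cells, a ratio of 0.06. Glypicans and syndecans overlapped, since Gpc4 at 0.03 lay above Sdc1 at -0.10. Their medians were -0.64 over 4 measured glypicans and 0.30 over 4 syndecans.

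**Figure D2:**
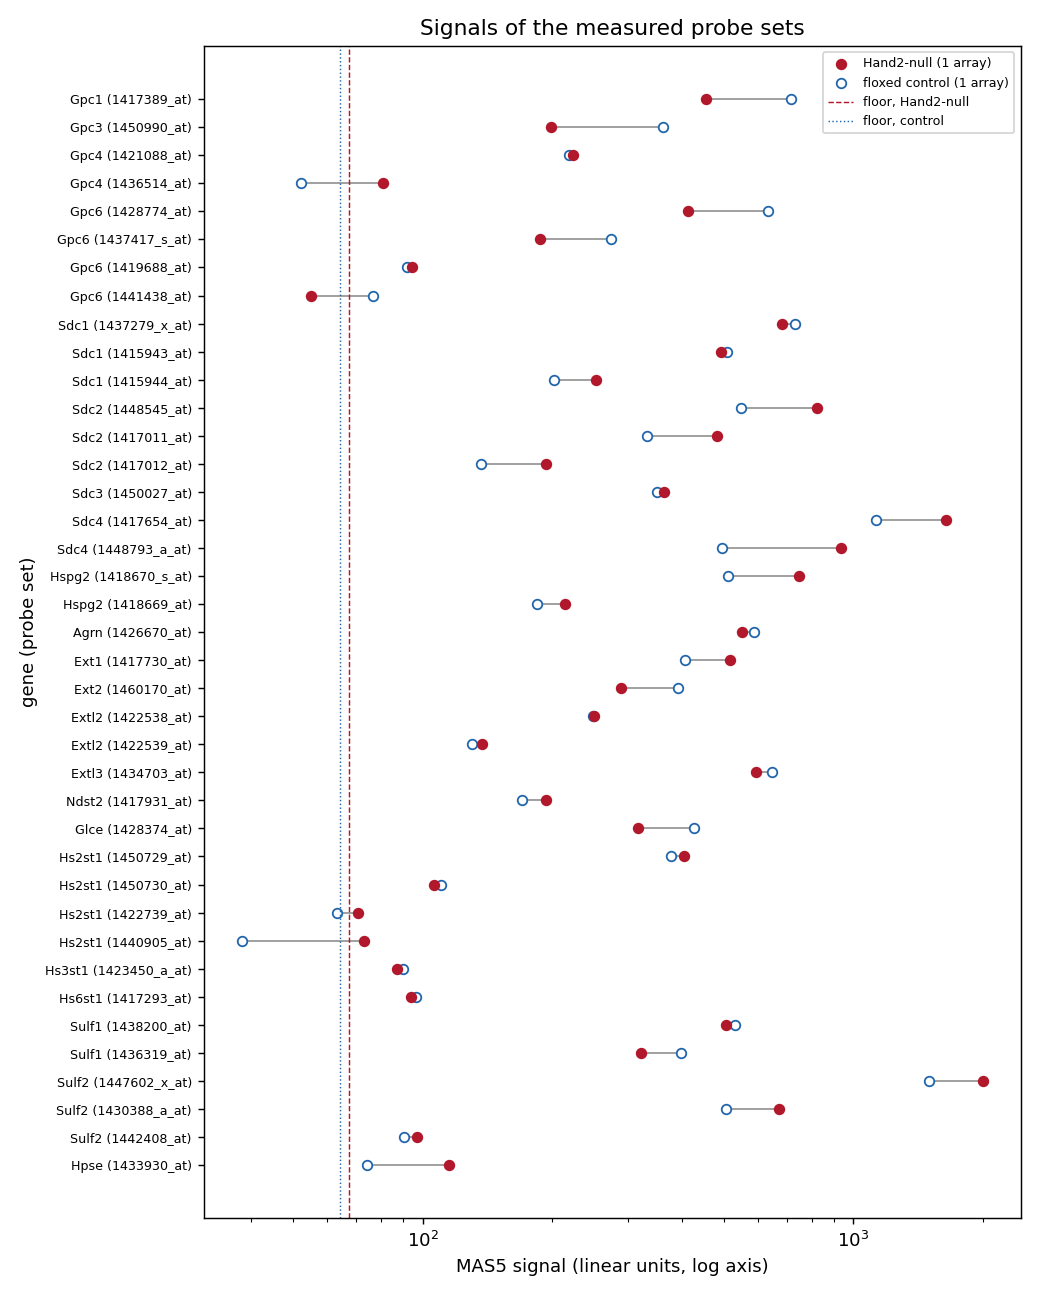
MAS5 signal on a log axis for each measured probe set of the list, with the Hand2-null array as filled red points and the floxed control array as open blue points, and the floors of 67.5 and 64.2 as dashed and dotted lines. Gpc1, Gpc3 and the brighter Gpc6 probe sets have the red point on the left, and every measured probe set of Sdc2, Sdc4, Hspg2 and Sulf2 has it on the right.

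Of the core proteins secreted into matrix, Hspg2, which encodes perlecan of basement membranes, had a signal of 747 in Hand2-null cells and 512 in control cells, a log2 ratio of 0.55. That probe set, 1418670_s_at, is of a kind that can match several transcripts, and the other probe set, 1418669_at, had 214 in Hand2-null cells and 184 in control cells, a ratio of 0.21. Both were higher, the second near the SD between probe sets. Agrn, which encodes agrin, had a signal of 551 in Hand2-null cells and 589 in control cells, a ratio of -0.09. Beside perlecan, a product of smooth muscle and endothelium as well as of fibroblasts, the smooth muscle markers summed to 2.21 times, and the endothelial markers to 0.767 times, their sum in the control array.

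**Figure D3:**
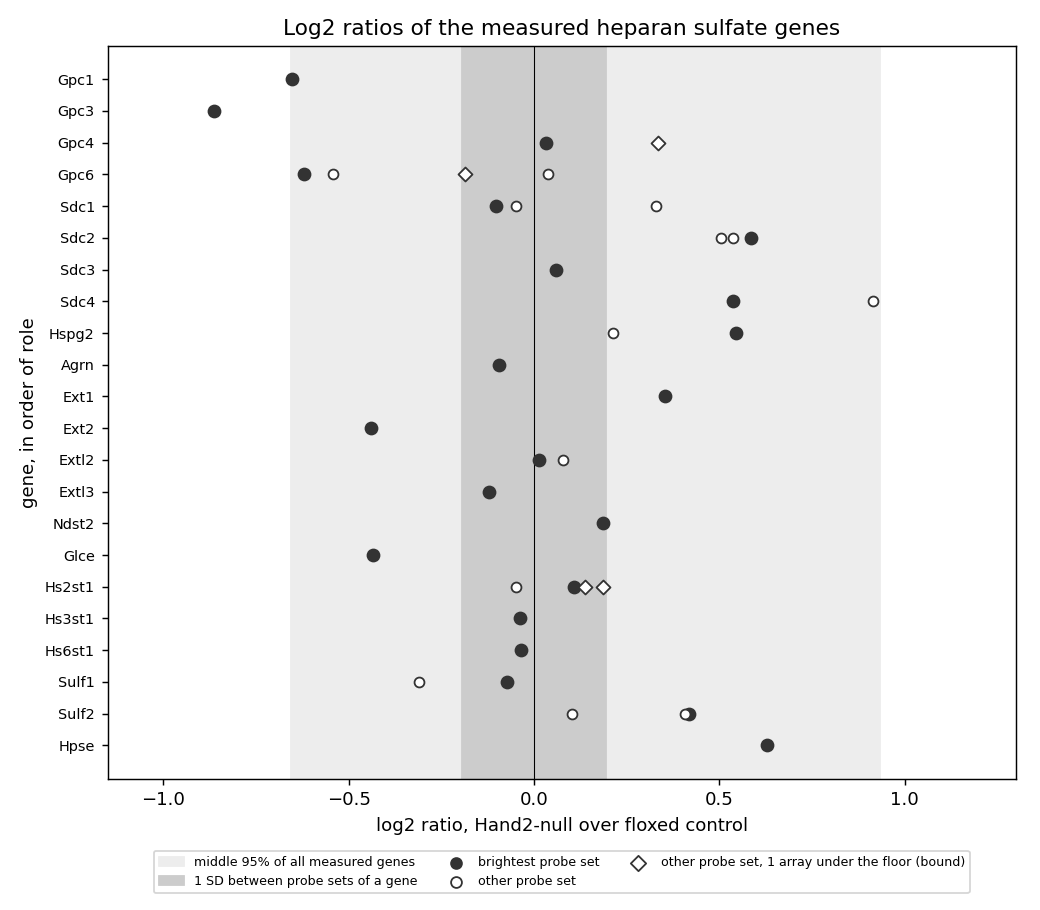
Log2 ratio of Hand2-null over floxed control for the measured probe sets of 22 genes in order of role, with filled circles for the brightest probe set, open circles for others and diamonds for bounds where 1 array was under the floor. The dark band is 1 SD of 0.19 between probe sets that read the same gene, the light band, from -0.66 to 0.93, is the middle 95% of all measured genes, and Gpc3 alone has its filled circle outside the light band.

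The enzymes that build the chain showed small and opposed differences. Ext1 and Ext2 encode the subunits of the polymerase that lengthens heparan sulfate, and they work as a complex. Ext1 had a signal of 518 in Hand2-null cells and 405 in control cells, a log2 ratio of 0.35. Ext2 had a signal of 289 in Hand2-null cells and 392 in control cells, a log2 ratio of -0.44. The ratios of the subunits differed by 0.79, although each value rests on 1 measured probe set. The SD of 0.27 for the difference between 2 probe sets of 1 gene does not measure the spread between genes or mice. Extl2 had signals of 250.2 in Hand2-null and 248 in control cells on its brighter probe set, a ratio of 0.01, and Extl3, the exostosin-like enzyme that starts heparan sulfate chains, had 594 in Hand2-null and 646 in control cells, a ratio of -0.12. Extl1, with 19.7 in Hand2-null and 12.0 in control cells, and Xylt2, a xylosyltransferase that begins the linkage to the core protein, with 38.1 in Hand2-null and 48.8 in control cells, were under the floor.

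Of the N-deacetylase and N-sulfotransferase enzymes, which open the chain to further sulfation, Ndst2 had a signal of 193 in Hand2-null cells and 170.0 in control cells, a log2 ratio of 0.19 and inside the SD between probe sets. Ndst3 and Ndst4 were under the floor in both arrays. Glce, the epimerase that turns glucuronic into iduronic acid, had a signal of 316 in Hand2-null cells and 427 in control cells, a log2 ratio of -0.43 on its only measured probe set. Hs2st1, which sulfates that iduronic acid, had 405 in Hand2-null cells and 376 in control cells on its brightest probe set, a ratio of 0.11. Its other 3 measured probe sets ranged from -0.05 to 0.19, 2 of them with the control array under the floor. The ratios of Hs2st1 and Glce, whose products are known to interact and which act in sequence, differed by 0.54.

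The 6-O-sulfotransferases and 3-O-sulfotransferases each had 1 measured gene. Hs6st1, whose 6-O-sulfate groups are bound by FGFs and their receptors, had a signal of 94.1 in Hand2-null cells and 96.3 in control cells, a log2 ratio of -0.03. Hs3st1, which makes the antithrombin-binding site, had 87.4 in Hand2-null cells and 89.8 in control cells, a ratio of -0.04. Both lay near the floor and within the SD between probe sets. Hs6st2, Hs6st3, Hs3st2, Hs3st3a1 and Hs3st3b1 stayed under the floor in both arrays, with no probe set above 32.4 in Hand2-null cells or 25.6 in control cells.

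The enzymes that act on finished chains outside the cell were Sulf1 and Sulf2, which remove 6-O-sulfate groups, and Hpse, the heparanase that cuts the chain. Sulf2 had signals of 2004, 671 and 97.2 on its 3 measured probe sets in Hand2-null cells and 1499.5, 506 and 90.6 in control cells, with log2 ratios of 0.42, 0.41 and 0.10. All 3 were higher in the Hand2-null array, the dimmest by less than the SD between probe sets, and this dimmest is the only one not of a kind that can match several transcripts. Sulf1, a close relative, had signals of 506 and 321 on its 2 measured probe sets in Hand2-null cells and 532 and 398 in control cells, with ratios of -0.07 and -0.31. The brightest probe sets of Sulf2 and Sulf1 differed in ratio by 0.49. Hpse had a signal of 115 in Hand2-null cells and 74.5 in control cells, a log2 ratio of 0.63 from 1 probe set whose control signal was close to the floor. With a pseudo-signal equal to the floor, Hpse had a ratio of 0.40, below those of Sdc2, Sdc4, Hspg2 and Sulf2. Beside the higher values of Sulf2 and Hpse, the 10 immediate-early and stress genes, known to respond when cells are dissociated, had a median log2 ratio of 0.47. The part of cell handling in any of these values was not tested.

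The promoters of Ext2 and Sulf2 are printed because, of the genes with a ratio past the SD between probe sets and a promoter in the RefSeq table, they are the ones whose windows hold E-boxes, shown in capitals. The windows are the 250 bases before the start in GRCm38.p6, minus strand, 5′ to 3′, at chr2:93822569-93822818 for Ext2 and, for Sulf2, which has 2 annotated starts, at chr2:166155286-166155535 and chr2:166155684-166155933.
Ext2: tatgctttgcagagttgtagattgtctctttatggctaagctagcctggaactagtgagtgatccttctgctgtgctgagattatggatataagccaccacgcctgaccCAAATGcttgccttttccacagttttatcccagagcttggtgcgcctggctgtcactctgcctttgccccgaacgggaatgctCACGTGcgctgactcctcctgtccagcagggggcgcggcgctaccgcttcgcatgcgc
Sulf2, start within the gene: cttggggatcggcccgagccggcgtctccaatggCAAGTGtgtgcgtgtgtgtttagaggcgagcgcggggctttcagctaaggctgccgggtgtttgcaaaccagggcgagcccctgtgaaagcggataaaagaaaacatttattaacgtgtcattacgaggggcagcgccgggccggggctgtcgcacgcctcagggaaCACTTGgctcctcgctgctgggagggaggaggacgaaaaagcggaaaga
Sulf2, upstream start: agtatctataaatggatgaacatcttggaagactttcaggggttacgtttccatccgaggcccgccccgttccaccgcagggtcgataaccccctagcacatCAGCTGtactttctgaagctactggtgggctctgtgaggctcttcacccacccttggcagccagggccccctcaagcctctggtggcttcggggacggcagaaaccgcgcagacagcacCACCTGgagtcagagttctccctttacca
In Ext2 the E-boxes are CAAATG and CACGTG, which begin 141 and 58 bases before the start. In the first Sulf2 window they are CAAGTG and CACTTG, 216 and 49 bases before it, and in the second CAGCTG and CACCTG, 148 and 29 bases before it. The motif reads the same on both strands. It occurred in 6 of 19 windows of the 16 measured genes with a promoter in the table, and in 66.2% of all promoters of the same length. CATCTG, an E-box that HAND2 is known to bind with its E-protein partners, or its reverse complement CAGATG, occurred in 0 of these 19 windows and in 14.4% of all, and every such match is also a match of CANNTG. Gpc3, Glce, Sdc4, Hspg2 and Hpse, the others past the SD with a promoter in the table, had no E-box in the window. The 31 windows of the whole list had a median G and C content of 64.8%, beside 52.4% over all promoters. The part of base content in these counts was not tested. A match or its absence in these letters is a description of the window.

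The remaining genes of the pathway showed no difference of 2-fold. Of 13 measured genes that supply sugar precursors, the sulfate donor or the linkage to the core protein, 3 were higher and 10 lower. The median of their log2 ratios was -0.09. Of all measured genes 44.7% were higher, which is also the background for the lists that follow. The largest in size were Ugp2, which makes UDP-glucose, at -0.36, Papss2, a synthase of the sulfate donor, at 0.36 and Fam20b, the kinase of the linkage xylose, at -0.28. Among 5 other measured carriers 1 was higher and 4 lower. Col18a1, whose product is a basement membrane collagen with heparan sulfate chains, had a signal of 1701 in Hand2-null cells and 2578 in control cells, 1.52-fold lower. Tgfbr3, which encodes betaglycan, had 2722 in Hand2-null and 2110.4 in control cells, a ratio of 0.37, and Cd44 was at -0.16.

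Of 6 measured genes for partners and shedding of the core proteins, 2 were higher and 4 lower. Mmp14, a membrane protease, had a signal of 3180.5 in Hand2-null cells and 1975 in control cells, a log2 ratio of 0.69. Cask, which binds the tail of syndecans, was at -0.39, and Mmp9 at 0.21. Of 8 measured genes listed for the lysosomal breakdown of heparan sulfate, 5 were higher and 3 lower, and the median was 0.15. These include Sumf1 and its relative Sumf2, which are not lysosomal enzymes. Sumf1, which activates sulfatases, was at 0.35, Gusb, the glucuronidase, at -0.29 and Sumf2 at -0.28.

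Chondroitin and dermatan sulfate share the linkage region with heparan sulfate. Of 11 measured genes of their synthesis 9 were higher and 2 lower, where 44.7% of all measured genes were higher. Past the SD between probe sets lay 6 on the higher side, where 21.8% of all measured genes lay. On the lower side lay 2, where 26.3% of all measured genes lay. Their median was 0.22 on the log2 scale. Chst11, a chondroitin 4-O-sulfotransferase, had a signal of 438 in Hand2-null cells and 252 in control cells, 1.74-fold higher. Chpf, a chondroitin polymerizing factor, was at 0.68, and Csgalnact1, which starts chondroitin chains, at 0.49. The 2 lower genes, outside the 3 largest ratios, were Chsy1 at -0.42 and Chst14 at -0.30. Chsy1 was the brightest of the list, with a signal of 977 in Hand2-null cells and 1312 in control cells. The signals of the 11 genes summed to 3569 in Hand2-null cells and 3496 in control cells. Of 4 measured carriers 3 were higher, with Cspg4, a proteoglycan of pericytes and smooth muscle, at 0.79, Vcan at -0.40 and Dcn at 0.28. The smooth muscle markers, 10 of 10 higher, stood beside Cspg4.

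**Figure D4:**
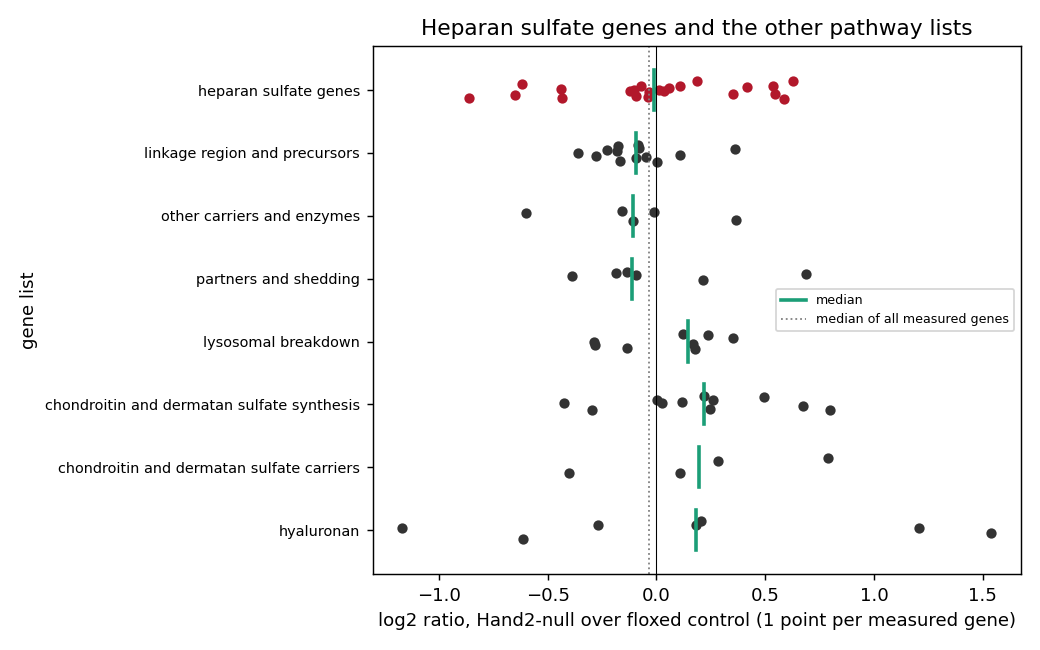
Log2 ratio of Hand2-null over floxed control, 1 point per measured gene, for the heparan sulfate genes (red) and the other lists (dark), with a green bar at each median and a dotted line at the median of all measured genes, -0.03. The 22 heparan sulfate genes spread from -0.86 to 0.63 around a median of -0.01, and the hyaluronan genes reach beyond 1 on both sides.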

How the data were processed

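The values analysed are linear array intensities (MAS5 signals) deposited by the authors. The submitters' processing notes name MAS5 and version 1 of Affymetrix Expression Console. With the outer 2% trimmed on either side, both deposited columns had a mean of 150.001, so each array had been scaled to 1 mean. The sources used here do not give a genome build, so coordinates are printed for RefSeq promoters only.

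Of 45101 probe sets, 64 controls were left out, and the platform annotation lists 1 gene for 34945 of the rest, several for 932 and none for 9160. By Entrez ID 34741 of these matched a RefSeq gene of GRCm38.p6. Signals below the 60th percentile of an array were set to it, log2 ratios were Hand2-null over control, and each gene was represented by its brightest probe set over both arrays (mean log2 signal). A fold with 1 array under the floor is a bound. A difference was counted at 2-fold. Precision is limited by the single array per genotype.

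The heparan sulfate genes, the lists and the rules were chosen with earlier results of these data known. All genes of the list are named, with up to 3 genes of the largest ratio per other pathway list, and Chsy1, Chst14 and Tnfaip6 besides. Alternatives were median centring, quantile normalization, loess (span 0.3), no floor or a floor at the 50th or 75th percentile, a pseudo-signal, averaging the probe sets of a gene, omitting those whose ID ends in _s_at, _x_at or _a_at, and folds of 1.5 and 3. The procedure was tested on simulated arrays. Python 3.11.15, numpy 2.4.6, pandas 2.3.3, statsmodels 0.14.6 and matplotlib 3.10.9 were used.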

Additional observations from a re-analysis of the deposited data

How the results depend on the processing

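With folds of 1.5 and 3 in place of 2, 644 and 49 of all measured genes were higher and 345 and 20 lower, against 206 and 77 at 2-fold. At 1.5-fold, 2 heparan sulfate genes were higher and 3 lower, and the counts past the fold were 1 for other carriers, 1 for partners and shedding, 2 for chondroitin synthesis and 1 for chondroitin carriers, all 0 at 2-fold. A floor at the 75th percentile left 117 higher and 45 lower, with a pseudo-signal 117 and 40, and hyaluronan genes past 2-fold numbered 1 under each, against 3. With no floor, 18193 genes were counted as measured, 1646 higher and 1626 lower. Then 1 heparan sulfate gene was 2-fold higher (Hs3st2) and 1 lower (Hs3st3a1), both under the floor in each array. Of 33 heparan sulfate genes then counted, 18 were higher and 15 lower, in place of 11 and 11 of 22. The count past 2-fold was 1 for other carriers, 1 for chondroitin synthesis and 1 for chondroitin carriers. The medians were -0.27 for hyaluronan and 0.12 for partners and shedding, against 0.18 and -0.11. With the mean over probe sets 1 chondroitin carrier was past 2-fold.

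Of the 22 genes, 17 kept their direction under all of the 9 settings that gave them a value, Gpc3 between -0.92 and -0.68, Gpc1 between -0.71 and -0.58, Sdc2 between 0.53 and 0.61 and Sdc4 between 0.48 and 0.73. Sdc1, Hs3st1, Hs6st1, Extl2 and Gpc4, all within 0.11 of 0, turned sign under at least 1. All settings reuse the same 2 arrays, so a kept direction is not replication. Gpc3 and Gpc1 each have 1 measured probe set, above every floor used. Changes of floor, averaging and omission therefore could not alter their ratios, and only the scalings and the pseudo-signal could. Gpc6 came to -0.33 with the mean over probe sets, Hpse to 0.40 with a pseudo-signal, and Hspg2 and Sulf2 to 0.21 and 0.10 without probe sets that can match several transcripts. The cause of the moves other than the change in genes or probe sets counted was not tested. No paired analysis was possible because each genotype had 1 array.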

Other observations

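Hyaluronan, the matrix sugar chain that is made at the cell membrane without a core protein, was read as a neighbouring system. Of 7 measured genes 4 were higher and 3 lower, and past 2-fold there were 2 higher, where 1.99% of all measured genes were, and 1 lower, where 0.742% were. Under a floor at the 75th percentile, and likewise with a pseudo-signal, 1 of these 3 genes, Lyve1, was still past 2-fold. The synthases went opposite ways. Has1 had a signal of 275 in Hand2-null cells and 119 in control cells, 2.31-fold higher. Has2 had a signal of 88.3 in Hand2-null cells and 199 in control cells, 2.25-fold lower. Lyve1, the hyaluronan receptor of lymphatic endothelium and some macrophages, had 1459.6 in Hand2-null and 502 in control cells, 2.91-fold higher, and Tnfaip6, which links proteins to hyaluronan and lies outside the 3 largest ratios, was at a log2 ratio of -0.61. Among the markers read beside these genes, 7 of 8 of blood vessel and general endothelium were lower, 4 of them past the SD between probe sets. Of all measured genes 5732 of 10371 were lower, and 26.3% lay past the SD on that side. Of the mesothelial markers 5 of 6 were higher, where 44.7% of all measured genes were. Msln, Lrrn4, Upk1b and Krt5 among them were under the floor in the control array, so they could only be counted as higher.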
